A study of Mus musculus with 3 samples.

Results

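The transcripts of 10 genes of matricellular proteins were described in nonhematopoietic stroma of the aged mouse thymus: Spp1 (osteopontin), Fn1, Tnc, Postn, Thbs1, Thbs2, Ccn1, Ccn2, Sparc and Sparcl1. They were 10 of 32293 features of the count tables, and all 10 were found by symbol. The set was proposed because of the pattern of Spp1 in these data, so the members were chosen by measured values, and the levels of Spp1 are given as a description with no test. Libraries of single cells were made from CD45- thymic stroma of untreated 20-month-old C57BL/6 mice, with 1 library in each of 3 groups: Foxn1 lineage trace female (Foxn1Lin female), Foxn1 lineage trace male (Foxn1Lin male) and wild type male. In Foxn1Lin mice, Cre recombinase under Foxn1 control, active in thymic epithelial cells (TECs), switches on a tdTomato reporter in cells that express Foxn1 and in their progeny. Each library held pooled thymi, and the protocol text names female mice for all 3 libraries although the sex field and title give male for a pair of them. For the wild type library the title reads CD45- while the field for cell type reads CD45-PECAM1+, and its barcodes held every class below. With 1 library a group, genotype, sex and library cannot be told apart, so values of libraries are set side by side with no test between them.

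Barcodes were put into classes by counts of unique molecular identifiers (UMIs, each standing for 1 captured transcript): TEC with at least 2 Epcam UMIs, endothelial cells (EC) with at least 2 Pecam1 UMIs, fibroblasts (FB) with at least 2 Pdgfra UMIs, mural cells with at least 5 Rgs5 and Acta2 UMIs together, mesothelial cells with at least 2 Upk3b UMIs, and unclassed barcodes with none of these. Barcodes that passed more than 1 gate were dropped. Levels are CPM, the UMIs of a gene per 1000000 UMIs summed over a class, and since 3′ ends are counted they are compared between classes and not between genes. Values are listed in the order Foxn1Lin female, Foxn1Lin male and wild type male, and mesothelial values in the order Foxn1Lin female and wild type male, since the Foxn1Lin male library had 0 mesothelial barcodes. The libraries held 8616, 3583 and 5478 called barcodes with medians of 4675, 7431 and 7947 UMIs. There were 467, 430 and 878 TECs, 1883, 823 and 862 ECs, 1852, 864 and 1709 FBs, 427, 449 and 353 mural cells, 340 and 36 mesothelial cells, and 3053, 843 and 1195 unclassed barcodes. The unclassed barcodes were shallow, with medians of 1919, 3071 and 3135 UMIs, and had FB markers at a summed 6612, 7196 and 5658 CPM beside TEC markers at 1015, 800.5 and 1377 CPM. Each gated class was highest in its own list of 6 markers except mesothelial cells, in which the FB list (Dcn, Col3a1 and others) summed to 9439 and 10292 CPM against 4764 and 4607 CPM for the mesothelial list. The TEC gate also took in the parathyroid list of 4 genes at 2881, 5173 and 2749 CPM, and its part in the TEC values was not tested. Between libraries, 3 to 14 barcodes were shared.

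Matricellular proteins are secreted into the extracellular matrix but act mainly on how cells attach, migrate and read growth factors rather than as load-bearing fibers. Osteopontin and the thrombospondins bind integrins and CD44 or CD36, tenascin C and periostin mark remodeling matrix, and CCN1 and CCN2 are rapidly induced secreted regulators and well-known targets of the coactivator YAP with TEAD factors. SPARC binds collagen and is made in large amounts by mesenchymal and endothelial cells. In the thymus such proteins come chiefly from the stroma that surrounds developing T cells.

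Sequences upstream of Spp1 and Ccn1 are shown because Spp1 had the most concentrated transcripts of the set and Ccn1 was the one tested member called between no pair of classes. The 250 bases before the RefSeq start of each gene are given 5′ to 3′ on the strand of the gene, from assembly GRCm38.p6, with chr5:104434861-104435110 (plus strand) for the first of the Spp1 starts listed and chr3:145649986-145650235 (minus strand) for Ccn1. Capitals mark matches to TATAAA (the TATA box, read as printed), to TGTGGT (the RUNX core, either strand) and to GGAATG (the TEAD core, either strand), and the motif TGANTCA (AP-1, either strand) was also searched.
Spp1: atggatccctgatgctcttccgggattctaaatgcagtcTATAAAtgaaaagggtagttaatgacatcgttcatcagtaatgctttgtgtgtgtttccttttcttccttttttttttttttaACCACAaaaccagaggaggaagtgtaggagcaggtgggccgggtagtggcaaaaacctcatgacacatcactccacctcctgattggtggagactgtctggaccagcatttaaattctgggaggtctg
Ccn1: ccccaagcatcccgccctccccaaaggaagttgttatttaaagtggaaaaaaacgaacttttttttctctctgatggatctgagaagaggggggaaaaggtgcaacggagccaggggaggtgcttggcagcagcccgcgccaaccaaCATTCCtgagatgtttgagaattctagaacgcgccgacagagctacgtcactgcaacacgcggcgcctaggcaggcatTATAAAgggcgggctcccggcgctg
The first Spp1 window held 1 RUNX match that begins 128 bases and 1 TATAAA match that begins 211 bases before the start. The window before the second Spp1 start, chr5:104435942-104436191, held 0 matches of the 4 motifs. The Ccn1 window held 1 TEAD match at 103 bases and 1 TATAAA match at 25 bases before the start. Of all 32851 promoter windows in the table, 14.0% held the RUNX core, 12.6% the TEAD core, 6.75% the AP-1 motif and 7.59% TATAAA. The matches describe letters only and none of the marked runs overlap. Of the 10 members, 6 had an entry, and Fn1, Thbs1, Ccn2 and Sparcl1 had none.

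Spp1 (ENSMUSG00000029304, GRCm38 chr5:104435118-104441050, plus strand), a secreted phosphoprotein that binds integrins and CD44, was carried by very few barcodes. In unclassed barcodes it stood at 41.2, 671 and 249 CPM. The mural level was 79.9, 237 and 42.3 CPM and the TEC level 28.6, 13.8 and 40.3 CPM. In FBs it was 11.5, 45.5 and 6.77 CPM, in ECs 5.23, 1.05 and 2.81 CPM, and in mesothelial cells 1.05 and 0 CPM. The unclassed barcodes were thus highest in both male libraries, mural cells were highest in the female library, and the unclassed values of the libraries differed by up to 16.3-fold.

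Unclassed barcodes held 383 of 1081, 2531 of 3827 and 1340 of 2480 Spp1 UMIs of called barcodes, which is 35.4%, 66.1% and 54.0% (95% exact binomial intervals 32.6 to 38.4%, 64.6 to 67.6% and 52.0 to 56.0%). These intervals cover counting error only. A Spp1 UMI was found in 1.90%, 4.27% and 4.44% of unclassed barcodes, and in 1.38%, 0.972% and 1.16% of ECs. To set depths equal, barcodes with at least 2000 UMIs were thinned to that number and shallower ones left out, which kept 1482 of 3053, 527 of 843 and 772 of 1195 unclassed barcodes and 1582 of 1883, 793 of 823 and 817 of 862 ECs. Among these deeper barcodes the shares were 1.82%, 6.07% and 5.18% of unclassed barcodes against 0.442%, 0.252% and 0% of ECs (0 of 817, exact upper limit 0.450%). The EC share is given as background, and barcodes outside the called ones with under 500 UMIs carried Spp1 at 37.6, 76.1 and 66.0 CPM.

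Concentration separated Spp1 from the other members. In each library 50% of its UMIs lay in 10, 9 and 12 barcodes, and the top barcode alone held 10.3%, 10.0% and 10.3%. For the other members 50% of UMIs took from 49 barcodes (Fn1, Foxn1Lin male) to 1019 barcodes (Sparc, Foxn1Lin female). Sparc and Sparcl1 were spread most widely in every library, and Tnc, the next most concentrated member in Foxn1Lin female, took 70 barcodes there.

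**Figure D1:**
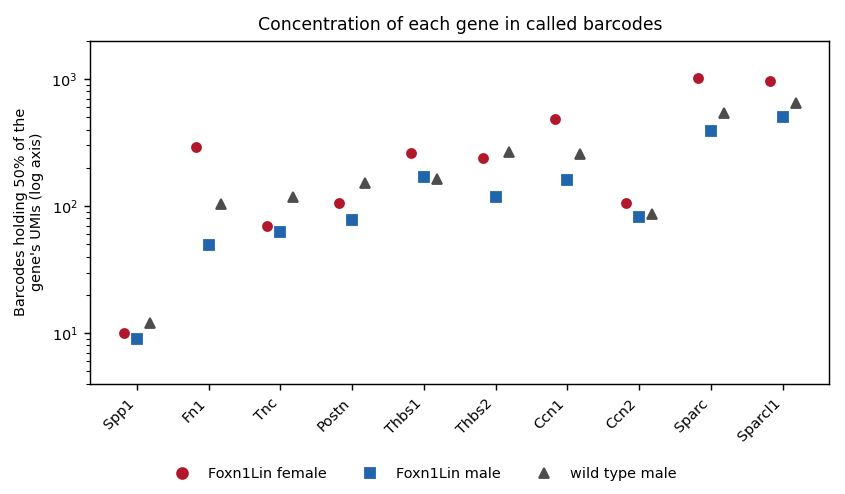
Number of called barcodes that hold 50% of the UMIs of each gene (log axis), 1 point for each library. Spp1 sits at 9 to 12 barcodes in the 3 libraries, while the other genes lie between 49 and 1019.

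At least 3 Spp1 UMIs were found in 41, 48 and 61 barcodes, and these held 88.6%, 98.7% and 96.0% of the Spp1 UMIs of called barcodes. The limit of 3 was set after the values were seen. With a limit of 2 the numbers were 46, 50 and 76 barcodes, and with a limit of 5 they were 36, 42 and 55. Of the barcodes with at least 3, the unclassed were 15, 32 and 35, and the rest were spread over the TEC, FB, mural and EC gates and the dropped barcodes. Single barcodes held large parts of some class levels: 1 mural barcode gave 111 of 154 Spp1 UMIs in Foxn1Lin female and another gave 283 of 649 in Foxn1Lin male, while 1 TEC barcode gave 256 of 734 in the wild type.

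The unclassed barcodes with at least 3 Spp1 UMIs were low in the single genes of the gates, as the gates require. Epcam was at 24.9, 3.46 and 9.23 CPM, Pdgfra at 12.4, 0 and 6.15 CPM and Pecam1 at 24.9, 3.46 and 3.08 CPM, while Acta2 and Rgs5 had 37.3, 6.92 and 52.3 CPM and 12.4, 10.4 and 12.3 CPM. The whole marker lists were not at 0. The mural list summed to 410.3, 616 and 797 CPM, above its 380.1, 453 and 293 CPM over all unclassed barcodes in each library. The TEC list summed to 547, 934 and 812 CPM, above all unclassed barcodes in Foxn1Lin male and below them in the other libraries. The FB list, at 3978, 3981 and 4200 CPM, and the EC list, at 162, 55.3 and 64.6 CPM, were lower than over all unclassed barcodes in every library. In barcodes outside the called ones with under 500 UMIs the TEC list was at 2493, 3801 and 3394 CPM and the EC list at 1325, 1025 and 739 CPM. The mural list was at 1070, 1259 and 643 CPM there and the FB list at 2944, 3704 and 3772 CPM. The Spp1 barcodes were below these in TEC and EC lists, below in the mural list of both Foxn1Lin libraries, and above in the FB list. The part of free RNA was not tested. The macrophage list had 0, 3 and 13 UMIs (0, 10.4 and 40.0 CPM, against 53.4, 40.6 and 49.7 CPM over all unclassed barcodes), with Csf1r, the macrophage receptor, at 0 UMIs in all 3 libraries. The hematopoietic list had 4, 1 and 38 UMIs (49.7, 3.46 and 117 CPM, against 278, 174 and 311 CPM), with Ptprc (CD45) at 12.4, 0 and 0 CPM. The part of these cell types in the Spp1 values was not tested. Dcn, a matrix proteoglycan, stood at 3158, 2981 and 2732 CPM, below the 4726, 5945 and 4033 CPM of unclassed barcodes with no Spp1 UMI. Pdpn (podoplanin), which the study uses to gate a subset of age-associated TECs, was at 385, 380.5 and 418 CPM against 343, 290.3 and 352 CPM, and was seen in 12 of 15, 27 of 32 and 31 of 35 of the Spp1 barcodes. The Pdpn intervals overlapped in Foxn1Lin female and the wild type. The epithelial keratin Krt8 was lower in the Spp1 barcodes, at 124, 3.46 and 40.0 CPM against 226, 145 and 252 CPM, with intervals that overlapped in Foxn1Lin female. Foxn1 had 0 UMIs in them against 18.3, 4.35 and 18.6 CPM, and the upper limits for 0 were 45.9, 12.8 and 11.3 CPM. Mmp3, a matrix protease, was at 771, 349 and 1159.9 CPM, from 5, 2 and 6 barcodes, against 91.5, 109 and 62.1 CPM. The parathyroid list stood at 1268, 13.8 and 6.15 CPM in these barcodes, and its part in the female values was not tested. The genes of this paragraph were chosen after their values were seen.

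The other members did not share 1 pattern in these Spp1 barcodes. Sparcl1 stood at 584, 1522 and 1597 CPM, against 493, 989.9 and 459 CPM in unclassed barcodes with no Spp1 UMI, and was seen in 6 of 15, 31 of 32 and 32 of 35 barcodes. Fn1 was at 0, 6.92 and 40.0 CPM (exact upper limit 45.9 CPM for the 0) against 343, 25.5 and 282 CPM. Thbs1 was at 0, 6.92 and 9.23 CPM against 127, 259 and 112 CPM. Tnc was at 0, 65.7 and 52.3 CPM against 129.9, 514 and 285 CPM. Fn1, Thbs1 and Tnc were thus lower beside Spp1 in all 3 libraries. Sparc was lower too, at 323, 380.5 and 351 CPM against 903, 584 and 511 CPM, and so was Postn, at 224, 24.2 and 541 CPM against 263, 578 and 605 CPM. The 95% Poisson intervals overlapped for Postn in Foxn1Lin female and the wild type, for Sparcl1 in Foxn1Lin female and for Fn1 in Foxn1Lin male. Ccn1, Ccn2 and Thbs2 were higher in some libraries and lower in others. Cd44, which encodes an osteopontin receptor, was at 249, 505 and 732 CPM in the Spp1 barcodes and at 269, 285 and 270.3 CPM in those without Spp1. Of the integrin subunits, Itgav was at 236, 284 and 372 CPM against 182, 240.4 and 249.7 CPM, with intervals that overlapped in both Foxn1Lin libraries. Itgb1 was at 274, 156 and 200 CPM against 273, 319.5 and 251 CPM, and Itga9 at 37.3, 27.7 and 33.8 CPM against 52.5, 37.4 and 49.4 CPM. Itgb3 was at 0, 6.92 and 3.08 CPM against 17.8, 2.61 and 7.26 CPM. The intervals overlapped in all 3 libraries for Itgb3 and Itga9, and in Foxn1Lin female and the wild type for Itgb1. Beyond counting error, Cd44 was higher beside Spp1 in both male libraries, Itgav was higher in the wild type, and Itgb1 was lower in Foxn1Lin male. Cd44 was not higher in Foxn1Lin female. The barcodes were chosen by Spp1, their median depth was 5050, 8651 and 8051 UMIs against 1902, 2833 and 2953 UMIs, and no test was made.

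**Figure D2:**
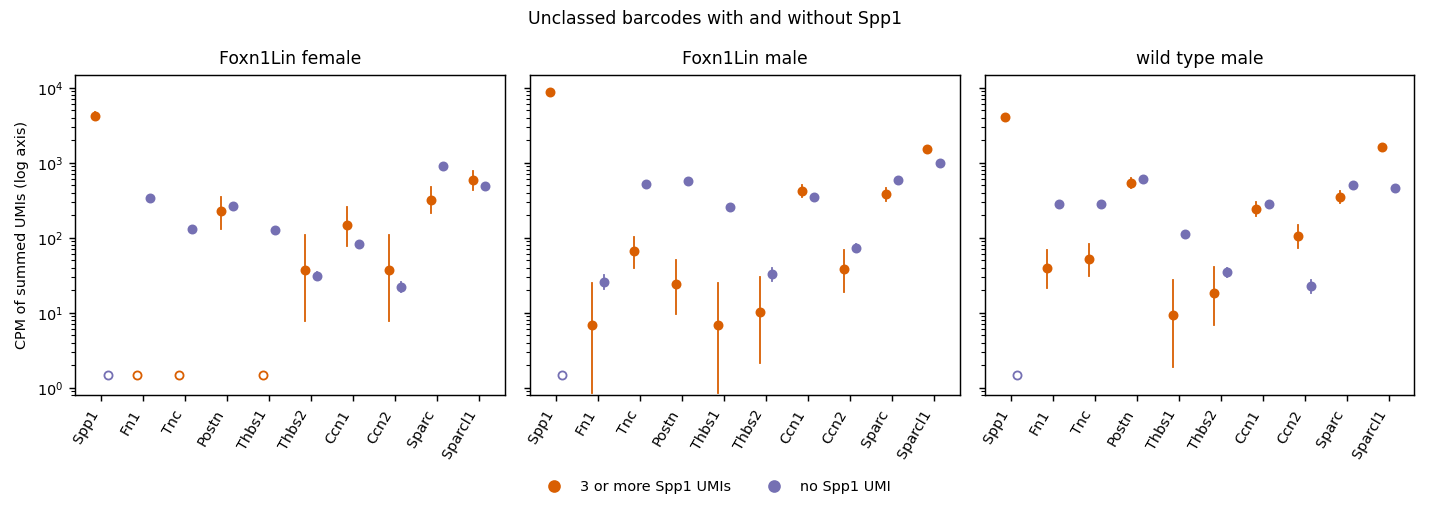
CPM of the 10 genes (log axis) in unclassed barcodes with at least 3 Spp1 UMIs and in those with none, 1 panel for each library. Lines are 95% Poisson intervals and open points at the foot mark 0 UMIs. Fn1, Tnc, Postn, Thbs1 and Sparc lie lower in the Spp1 barcodes of all 3 libraries and Sparcl1 lies higher.

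The reporter transcript tdT-WPRE was found in 12 of 15 and 30 of 32 of the unclassed Spp1 barcodes of Foxn1Lin female and male, and in 0 of 35 of the wild type. Among unclassed barcodes with no Spp1 UMI it was found in 522 of 2995, 188 of 807 and 0 of 1142.

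The remaining 9 members were compared between the 5 gated classes on UMIs summed for each library and class, with edgeR's quasi-likelihood test, the library as block and p-values adjusted over all 17598 genes tested. All 9 passed the filter on low counts. A gene is called here when its adjusted p is under 0.05, and because classes differ in most of their transcriptome the share of all genes called is given beside each count. Between TEC and EC 6 of 9 members were called, where 56.3% of all genes were, and between TEC and FB 7 of 9, against 55.0%. TEC and mural cells differed in 5 (48.7%), and TEC and mesothelial cells in 5 (37.9%). For EC the counts were 6 against FB (39.7%), 7 against mural cells (37.3%) and 4 against mesothelial cells (34.5%). FB and mural cells differed in 2 (28.4%), FB and mesothelial cells in 4 (21.5%), and mural and mesothelial cells in 6 (26.8%). With 9 members a count moves in steps of 1 in 9, so that the counts near the share over all genes, such as those of TEC with EC, TEC with mural cells, EC with mesothelial cells and FB with mural cells, say little about the members. The median log2 fold change over the 9 members was -2.83 for TEC minus FB and -2.49 for TEC minus mural, against 0.09 and 0.13 over all genes. For EC minus FB it was -1.40 against 0.04, and for EC minus mural -1.71 against 0.02, so all 13 called differences of these 2 pairs were lower in EC.

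**Figure D3:**
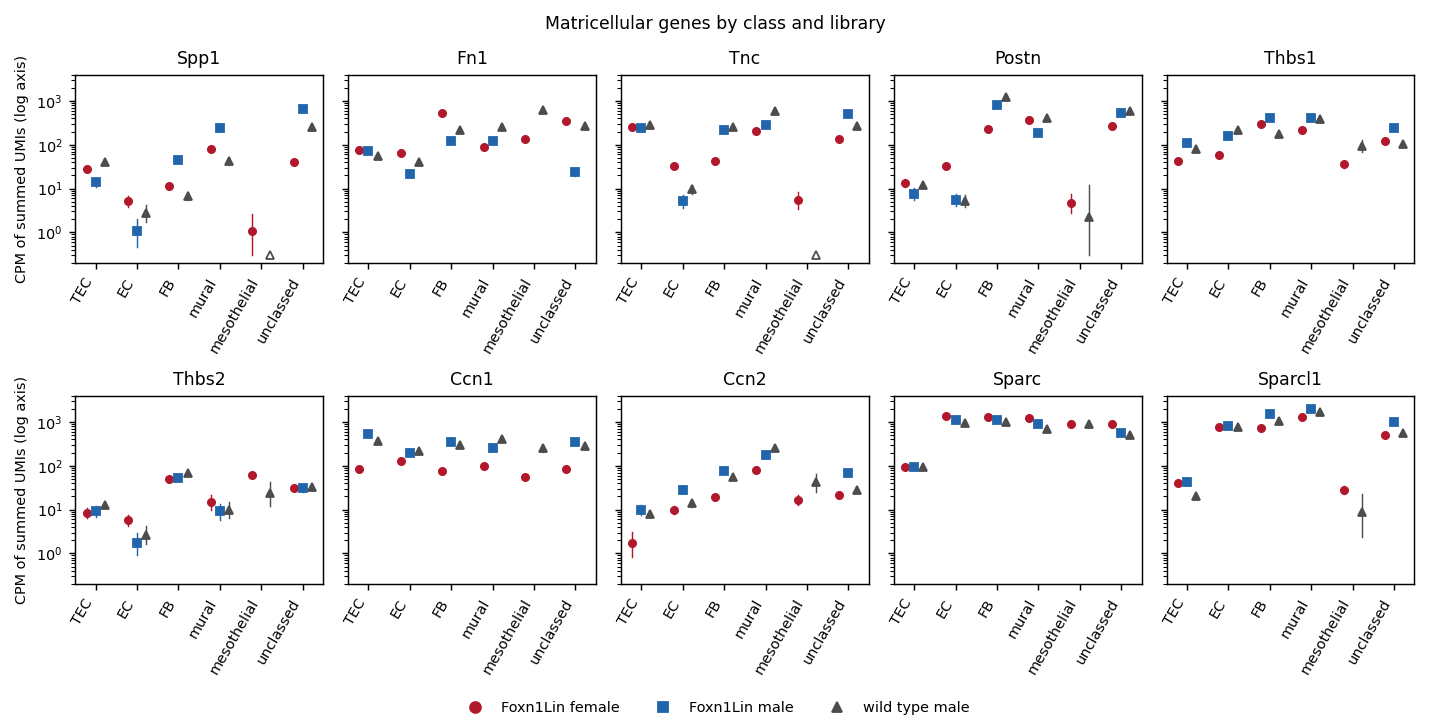
CPM of each gene (log axis) in the 5 gated classes and in unclassed barcodes, 1 point for each library with its 95% Poisson interval. Open points at the foot mark 0 UMIs, and the Foxn1Lin male library has no mesothelial point. Sparc and Sparcl1 are high in EC, FB and mural cells in all libraries, Tnc is high in TEC and low in EC, and Ccn1 is low in Foxn1Lin female in every class.

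Fn1 (ENSMUSG00000026193, chr1:71585520-71653200, minus strand) encodes fibronectin, a large integrin-binding glycoprotein that cells assemble into fibrils. Its FB level was 522, 119 and 216 CPM and its mesothelial level 134 and 632 CPM. In mural cells it was 90.8, 119 and 248 CPM, in TECs 75.9, 70.1 and 54.2 CPM, and in ECs 64.6, 21.7 and 39.6 CPM. ECs were lower than FBs (EC minus FB -2.71 ± 0.61, log2 fold change ± SE, adjusted p = 0.00448) and so were TECs (TEC minus FB -2.27 ± 0.61, adjusted p = 0.00856), in 3 of 3 libraries each. The difference of TECs and mural cells was not called (-1.43 ± 0.60 for TEC minus mural, adjusted p = 0.0685), although TECs were lower in 3 of 3 libraries. Not called either were TEC and EC (adjusted p = 0.551), FB and mural cells (adjusted p = 0.338) and FB and mesothelial cells (adjusted p = 1.0). EC minus mesothelial was -2.71 ± 0.69 (adjusted p = 0.0106). It was -1.43 without the wild type, a fit that left mesothelial cells of 1 library only.

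Tnc (ENSMUSG00000028364, chr4:63959785-64047015, minus strand) encodes tenascin C, a hexameric glycoprotein that loosens cell attachment. It stood at 258, 244 and 284 CPM in TECs, with a ratio of 1.17 between the highest and lowest library, and at 201, 279 and 597 CPM in mural cells. In FBs it was 41.8, 222 and 255 CPM, in ECs 33.3, 5.12 and 9.76 CPM, and in mesothelial cells 5.50 and 0 CPM. TEC exceeded EC by 3.64 ± 0.80 (adjusted p = 0.00266), higher in 3 of 3 libraries. TEC, FB and mural cells were not told apart, with adjusted p of 0.747, 0.432 and 0.328 in their pairs. The EC minus FB difference of -3.34 ± 0.84 (adjusted p = 0.00802) lost its call without Foxn1Lin male (adjusted p = 0.107) or without the wild type (adjusted p = 0.131).

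Postn (ENSMUSG00000027750, chr3:54361109-54391037, plus strand) encodes periostin, which cross-links collagen. FB had 225, 809 and 1229.7 CPM and mural cells 362, 183 and 399 CPM. TECs (13.7, 7.60 and 12.0 CPM), ECs (33.4, 5.52 and 5.22 CPM) and mesothelial cells (4.72 and 2.20 CPM) were low. TEC minus FB was -6.56 ± 0.83 (adjusted p = 6.71e-05) and EC minus FB -5.91 ± 0.83 (adjusted p = 0.000193), lower than FB in 3 of 3 libraries. FB and mural cells were not told apart (FB minus mural 1.44 ± 0.66, adjusted p = 0.133), and mural cells were higher in the female library and FB in both male libraries.

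Thrombospondins are trimeric or pentameric glycoproteins that bind CD36, CD47 and integrins. Thbs1 (ENSMUSG00000040152, chr2:118111876-118127133, plus strand) was at 296, 407 and 172 CPM in FBs and 219, 399 and 391 CPM in mural cells, which did not differ (adjusted p = 0.912). ECs had 58.9, 157 and 215 CPM, TECs 41.5, 109 and 80.8 CPM, and mesothelial cells 35.6 and 94.6 CPM. TECs were lower than FBs (TEC minus FB -2.42 ± 0.39, adjusted p = 0.000385). The EC minus FB difference of -1.16 ± 0.38 (adjusted p = 0.0319) went the other way in the wild type, and its adjusted p was 0.372 without Foxn1Lin female and 0.167 without Foxn1Lin male. Thbs2 (ENSMUSG00000023885, chr17:14665500-14694235, minus strand) followed another order. It was at 49.3, 53.3 and 69.5 CPM in FBs and 62.9 and 24.2 CPM in mesothelial cells, and at 8.45 to 12.6 CPM in TECs, 9.11 to 15.0 CPM in mural cells and 1.71 to 5.66 CPM in ECs. FBs were higher than mural cells (FB minus mural 2.40 ± 0.38, adjusted p = 0.000897) and ECs lower than FBs (EC minus FB -4.11 ± 0.40, adjusted p = 1.49e-05), in 3 of 3 libraries each.

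Ccn1 (ENSMUSG00000028195, chr3:145646976-145649981, minus strand), formerly known as Cyr61, was not called in any of the 10 pairs of classes. By edgeR its adjusted p ran from 0.189 (mural against mesothelial cells) to 0.961, with 0 of 10 pairs under 0.05 before adjustment as well, and DESeq2 also called 0 pairs (0 before adjustment). TECs had 83.4, 521 and 359.7 CPM, ECs 132, 196 and 213 CPM, FBs 76.1, 353 and 301 CPM, mural cells 99.6, 259.5 and 416 CPM and mesothelial cells 54.5 and 251 CPM. The female library was the lowest in each class and the libraries differed by 1.61-fold in ECs to 6.25-fold in TECs. In barcodes outside the called ones with under 500 UMIs Ccn1 was also lowest in the female library, at 64.7 CPM against 334 and 395 CPM, and the part of free RNA in the class values was not tested.

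Ccn2 (ENSMUSG00000019997, chr10:24595442-24598683, plus strand), also called connective tissue growth factor, was highest in mural cells at 79.3, 173 and 251 CPM. FBs had 19.6, 77.4 and 54.3 CPM, ECs 9.93, 28.0 and 14.0 CPM, TECs 1.69, 9.78 and 8.12 CPM, and mesothelial cells 16.8 and 41.8 CPM. FB minus mural was -1.81 ± 0.27 (adjusted p = 0.000595), EC minus FB was -1.40 ± 0.27 (adjusted p = 0.00188), and TEC minus EC was -1.88 ± 0.30 (adjusted p = 0.000329). Each step held in 3 of 3 libraries, and among the members only Ccn2 gave a complete order of mural cells, FB, EC and TEC with every neighbour called. Without the library block, the mural and FB step (adjusted p = 0.0771) and the FB and EC step (adjusted p = 0.102) lost their calls.

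Sparc (ENSMUSG00000018593, chr11:55394500-55423183, minus strand), a collagen-binding glycoprotein, separated TECs from the other classes. TECs had 92.6, 94.5 and 92.8 CPM. ECs had 1371, 1123 and 947 CPM, FBs 1296, 1104 and 985 CPM, mural cells 1242, 883 and 710.1 CPM, and mesothelial cells 904 and 905 CPM. The TEC level was the steadiest of all member and class levels measured in 3 libraries, with a highest to lowest ratio of 1.02. Barcodes outside the called ones with under 500 UMIs had Sparc at 505, 455 and 335 CPM, and the part of free RNA in the TEC level was not tested. TEC minus EC was -3.97 ± 0.16 (adjusted p = 1.64e-07), TEC minus FB -3.91 ± 0.16 (adjusted p = 1.55e-07) and TEC minus mural -3.61 ± 0.16 (adjusted p = 3.09e-07). EC, FB and mural cells were not told apart, with adjusted p of 0.78, 0.0773 and 0.157.

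Sparcl1 (ENSMUSG00000029309, chr5:104079111-104113733, minus strand), a relative of SPARC that is often called hevin, was highest in mural cells at 1327, 1991 and 1663 CPM. FBs had 718, 1497 and 1062 CPM and ECs 769.7, 814 and 754 CPM. TECs had 41.2, 41.9 and 20.6 CPM and mesothelial cells 28.0 and 8.80 CPM. Barcodes outside the called ones with under 500 UMIs had 466, 632 and 532 CPM, and the part of free RNA was not tested. Mesothelial cells thus had abundant Sparc and little Sparcl1, with FBs higher in Sparcl1 (FB minus mesothelial 5.54 ± 0.49, adjusted p = 3.39e-05) and not told apart in Sparc (0.43 ± 0.17, adjusted p = 0.0935). The difference of FB and mural cells in Sparcl1 was not called (adjusted p = 0.178), although FBs were lower in 3 of 3 libraries. EC minus mural was -1.02 ± 0.32 (adjusted p = 0.0273), a call that was lost without Foxn1Lin male (adjusted p = 0.174) or the wild type (adjusted p = 0.056).

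Within FBs the members split sharply between barcodes with at least 2 Ptn UMIs (431, 651 and 1201 barcodes), the gene by which the study marks medullary fibroblasts, and barcodes with at least 2 Pi16 and Dpp4 UMIs (738, 72 and 160 barcodes), which mark capsular fibroblasts. Of the 9 members 7 were called, against 23.8% of 12316 genes. Fn1 was at 17.3, 3.63 and 32.5 CPM in Ptn barcodes and at 938, 1069 and 1342 CPM in Pi16/Dpp4 barcodes, a log2 fold change of -6.25 ± 0.45 (adjusted p = 2.75e-06). Tnc went the other way, at 139, 242 and 325 CPM against 9.54, 1.30 and 9.32 CPM (4.60 ± 0.33, adjusted p = 2.55e-06). Postn was at 744, 945 and 1464 CPM against 36.0, 112 and 248 CPM (3.33 ± 0.31, adjusted p = 1.52e-05). The library values of the groups did not overlap for these genes, but the share of all genes without overlap was not computed. Postn is named with Ptn as a marker of the same fibroblasts by the study, so its direction is not independent evidence.

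Sparcl1 was likewise higher in Ptn barcodes, at 1358, 1675 and 1284 CPM against 391, 374 and 218 CPM (2.16 ± 0.19, adjusted p = 8.45e-06), whereas Sparc was lower, at 923, 1036 and 864 CPM against 1423, 1482 and 1447 CPM (-0.63 ± 0.15, adjusted p = 0.0111). Ccn2 (1.18 ± 0.23, adjusted p = 0.00288) and Ccn1 (0.77 ± 0.23, adjusted p = 0.0329) were higher in Ptn barcodes in 3 of 3 libraries. The Ccn1 call was lost without Foxn1Lin male (adjusted p = 0.248), and the Sparc call without Foxn1Lin female (adjusted p = 0.0518) or Foxn1Lin male (adjusted p = 0.0593). Without the library block both were lost as well (adjusted p = 0.328 for Ccn1 and 0.0868 for Sparc). Thbs1 (0.48 ± 0.43, adjusted p = 0.5) and Thbs2 (-0.45 ± 0.16, adjusted p = 0.0612) were not called. Spp1, which was not tested, was at 28.8, 58.5 and 8.58 CPM in Ptn barcodes and at 1.54, 3.91 and 0.666 CPM in Pi16/Dpp4 barcodes. Few barcodes carried it, with a Spp1 UMI in 11, 17 and 21 Ptn barcodes (2.55%, 2.61% and 1.75%) and in 10, 3 and 1 Pi16/Dpp4 barcodes (1.36%, 4.17% and 0.625%), so that the share of positive barcodes in Foxn1Lin male went the other way.

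**Figure D4:**
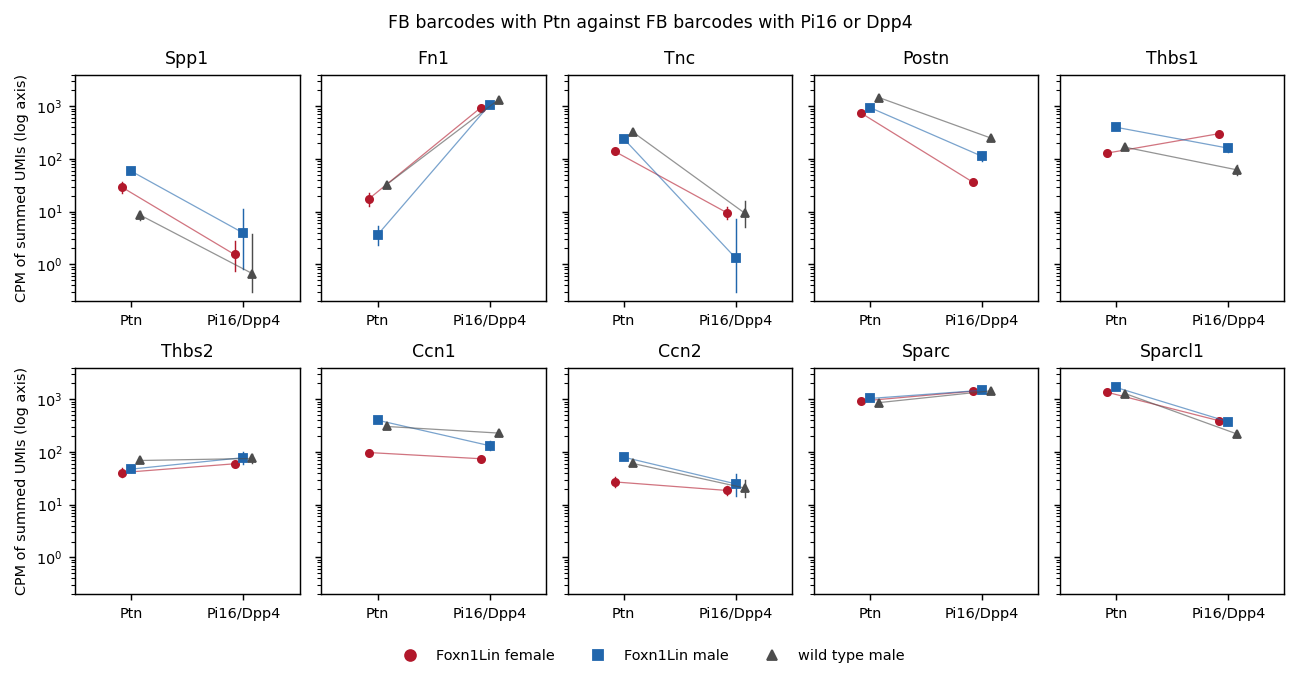
CPM of the 10 genes (log axis) in FB barcodes with Ptn and in FB barcodes with Pi16 or Dpp4, with a line for each library and 95% Poisson intervals. Fn1 rises from at most 32.5 CPM to at least 938 CPM, while Tnc, Postn and Sparcl1 fall in all 3 libraries.

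Ptn barcodes were 23.3%, 75.3% and 70.3% of FBs and Pi16/Dpp4 barcodes 39.8%, 8.33% and 9.36%, and their part in the differences of FB levels between libraries was not tested. Foxn1Lin female had the lowest Ptn share and the lowest FB levels of Postn and Tnc. From Foxn1Lin male to the wild type the Ptn share was lower and the FB levels of both genes were higher. The FB level of Fn1 differed 4.37-fold between libraries, and within Pi16/Dpp4 barcodes it ran from 938 to 1342 CPM. The FB level of Postn differed 5.46-fold, and within Ptn barcodes it ran from 744 to 1464 CPM. The Tnc level of FBs differed 6.10-fold, from 41.8 CPM in Foxn1Lin female to 255 CPM in the wild type, and ran from 139 to 325 CPM within Ptn barcodes. No test was made between libraries.

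Within ECs, barcodes with at least 3 Vwf and Selp UMIs (126, 299 and 308 barcodes, genes of venous and larger vessels) were set against the other ECs. Of the 9 members 4 were called, against 25.3% of 11892 genes. Thbs1 was at 222, 284 and 411 CPM in Vwf/Selp barcodes and at 37.2, 43.4 and 47.9 CPM in the others (3.01 ± 0.16, adjusted p = 1.22e-06). Ccn2 was higher as well, at 22.9, 36.8 and 24.1 CPM against 8.22, 20.0 and 5.46 CPM (1.62 ± 0.26, adjusted p = 0.00121). Sparc was lower (-0.75 ± 0.13, adjusted p = 0.00184) and so was Ccn1 (-0.66 ± 0.21, adjusted p = 0.0396), the latter not called without Foxn1Lin male (adjusted p = 0.229). Vwf/Selp barcodes were 6.69%, 36.3% and 35.7% of ECs, beside Thbs1 levels of 58.9, 157 and 215 CPM over all ECs, and their part in these levels was not tested. Without the library block only Thbs1 was called.

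Within mural cells, barcodes with at least 2 UMIs of Myh11, the smooth muscle myosin heavy chain, were set against those with none (286, 347 and 289 against 98, 60 and 39 barcodes). Of the 9 members 5 were called, against 15.0% of 8688 genes. Thbs1 (1.87 ± 0.37, adjusted p = 0.0122) and Sparcl1 (1.32 ± 0.20, adjusted p = 0.00448) were higher with Myh11. Postn was lower, at 133, 153 and 275 CPM against 919, 361 and 1178 CPM (-1.90 ± 0.29, adjusted p = 0.00419), as were Sparc (-1.05 ± 0.18, adjusted p = 0.00691) and Ccn1 (-0.95 ± 0.19, adjusted p = 0.0127). Thbs1 and Ccn1 lost their calls without Foxn1Lin male (adjusted p = 0.0581 and 0.0593), and without the library block only 1 member, Postn, was called. Spp1, not tested, was at 2.99, 69.6 and 24.7 CPM with Myh11 and at 326, 1502 and 181 CPM without it. Barcodes with no Myh11 UMI held 138 of 154, 495 of 649 and 50 of 102 of the mural Spp1 UMIs. These UMIs came from 2 of 98, 6 of 60 and 2 of 39 barcodes, so the values describe single barcodes rather than a level of the subset.

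Within TECs, barcodes with at least 2 Cldn3 and Plet1 UMIs (126, 112 and 260 barcodes), of which claudin 3 helps to gate age-associated TECs in the study, were set against barcodes with at least 3 Prss16 and Psmb11 UMIs (84, 21 and 96 barcodes), genes of cortical TECs. Postn and Ccn2 did not pass the filter on low counts. Of the 7 members that did, 3 were called, against 22.7% of 12031 genes. Tnc was lower in Cldn3/Plet1 barcodes, at 120.3, 207 and 217 CPM against 400.4, 575 and 368 CPM (-1.33 ± 0.23, adjusted p = 0.00752). Thbs2 (-2.44 ± 0.38, adjusted p = 0.00484) and Sparc (-1.08 ± 0.19, adjusted p = 0.00734) were lower too, the last not called without the wild type (adjusted p = 0.0775). Fn1 was at 44.5, 58.4 and 33.2 CPM against 53.8, 78.3 and 66.5 CPM and was not called (adjusted p = 0.106).

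**Figure D5:**
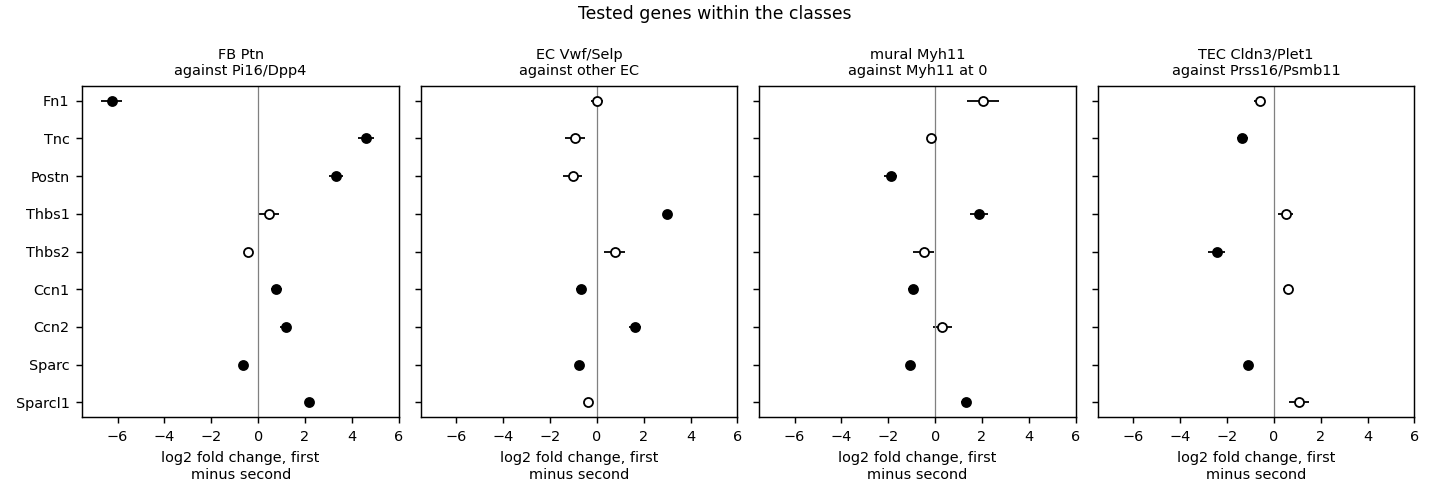
Log2 fold changes with SE of the 9 tested genes in the 4 comparisons within classes, first minus second subset. Filled points are called at an adjusted p under 0.05, and a missing point did not pass the filter on low counts. Fn1 at -6.25 and Tnc at 4.60 in FBs are the extremes.

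Genes of receptors and relatives of the members were taken from lists chosen with earlier results known, and are described by counts. Of 16 receptor genes 11 were called between EC and FB, where 39.7% of all genes were, and 12 between TEC and FB, against 55.0%. Cd36, a thrombospondin receptor, was at 1789.7, 2252 and 2324 CPM in ECs and at 30.4, 3.59 and 4.60 CPM in FBs (8.24 ± 0.76, adjusted p = 1.13e-05). Within ECs it was lower in Vwf/Selp barcodes (-1.45 ± 0.15, adjusted p = 7.68e-05), where Thbs1 was higher. Cd44 was lower in ECs than in FBs (-2.61 ± 0.46, adjusted p = 0.000945) and also lower in TECs than in FBs (adjusted p = 0.00309). The median over the 16 was -0.60 for EC minus FB and -1.38 for TEC minus FB.

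Between Ptn and Pi16/Dpp4 fibroblasts 8 of 13 tested receptor genes were called, against 23.8% of all genes, with Itgb8 (1.96 ± 0.22) and Itga8 (2.55 ± 0.32), an integrin subunit for osteopontin and tenascin C, higher in Ptn barcodes and Itgb3 (-3.34 ± 0.30) and Itga5 (-0.89 ± 0.17), the fibronectin receptor subunit, lower. Of 21 other members of the same gene families 13 passed the filter and 8 were called in this comparison, against the same 23.8%, with 2 higher and 6 lower in Ptn barcodes and a median of -1.15 over the 13. Tnxb, a tenascin, was lower in Ptn barcodes (-4.09 ± 0.20, adjusted p = 3.5e-07) while Tnc was higher. Ccn3 was lower (-3.22 ± 0.27) and Ccn4 higher (3.68 ± 0.64), and Tgfbi, the closest relative of Postn, was higher (2.07 ± 0.18). The other relatives called, Spock2, Smoc2, Thbs3 and Fstl1, were lower (-1.48 to -2.19). Most called relatives were thus lower in Ptn barcodes. Of the mineralized-tissue relatives of Spp1, Dspp and Mepe had 0 UMIs in every gated class of every library, and Ibsp had UMIs only in wild type TECs, at 0.823 CPM (15 UMIs).

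Of 8 other targets of YAP with TEAD, 7 were tested between the fibroblast subsets, 5 were called, against 23.8% of all genes, and all 5 were lower in Ptn barcodes (Nuak2, Axl, Amotl2, Crim1 and Ankrd1, -1.08 to -2.58), where Ccn1 and Ccn2 were higher. Of 7 immediate early genes, 2 were called there, Jun (1.14 ± 0.18) and Ier2 (0.84 ± 0.19), both higher in Ptn barcodes, a share near the 23.8% over all genes. The summed immediate early level ran from 7163 to 16771 CPM over the gated classes and libraries, and its part in the Ccn1 and Ccn2 values was not tested.

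Genes most like each member were sought by Pearson's r of log2(CPM + 1) over 17 sums of classes and libraries, which share libraries and base composition, as a description only. Sparc was most like Kctd17 (r = 0.99), Postn like Ltbp1 (0.98), Sparcl1 like Pcdh19 (0.98) and Thbs2 like Slc43a1 (0.97). Tnc was most like Gm17276 (0.96) and F730043M19Rik (0.96), with Ccl19 next (0.96), and Ccn2 like Nr2f2 (0.95). Thbs1 was most like Rhob (0.88) and Fn1 like Ak1 (0.85). The genes most like Ccn1 were Eif2s3y (0.92) and Uty (0.92), both on the Y chromosome and so carried by the male libraries. Spp1 was most like Heyl (0.88), Ccl19 (0.87) and Gm17276 (0.87), and among the members it was most like Tnc (0.84).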

How the data were processed

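CD45- cells of pooled thymi were captured on a 10x Genomics droplet system, and per the labels the authors used Cell Ranger (7.01 in the submitters' processing notes, 7.0.1 in the file headers) to make the deposited tables of UMI counts. The counts were not normalized. Members, gates and gene lists were chosen with earlier results of these data known. Called barcodes were taken as deposited and classed by marker UMIs, and UMIs were summed by library and class where at least 20 barcodes were present. Doublets were treated by dropping barcodes in more than 1 class, and the barcodes with the highest Scrublet scores (scanpy 1.11.5) were removed only as an alternative. Levels carry exact Poisson intervals and shares exact Clopper-Pearson intervals at 95%, both for counting error only, since each group was 1 library and genotype, sex and library cannot be told apart.

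Sums were compared with the quasi-likelihood test of edgeR 4.0.16 in R 4.3.3 (TMM, filterByExpr, library as block), with Benjamini-Hochberg adjustment over all genes of a comparison and an adjusted p under 0.05 as the limit. The SE was computed as the size of the log2 fold change over the square root of F. Class sums of a library come from the same pooled mice, so p-values measure the spread between libraries. Mesothelial sums came from 2 libraries. Since the gated classes were fitted together, the p-values of mesothelial comparisons rest largely on the spread of the other classes. Spp1, unclassed barcodes and the gate genes were not tested. The fitting script was tested on simulated data with known fold changes. The genes planned to be named were the 10 members, the 3 genes most like each, and up to 4 genes of each list. More than 4 were named of the receptors, the other family members and the YAP targets. Other exceptions are stated where they appear. Alternatives were a barcode quality filter, doublet removal, stricter gates, no TMM, DESeq2 1.42.0, no filter on low counts, no library block, adjustment over all pairs and leaving out each library, and, added after seeing the data, removal of barcodes with at least 3 Spp1 UMIs. The tests within classes were not run with doublet removal, stricter gates, adjustment over all pairs or removal of Spp1 barcodes.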

Additional observations from a re-analysis of the deposited data

Results flagged for a closer look

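For several members the order of a pair of classes in Foxn1Lin female was the opposite of that in both male libraries. These differences between libraries were not tested, sex cannot be told apart from library, and values are differences of log2(CPM + 1) in the order Foxn1Lin female, Foxn1Lin male and wild type male. Tnc in TEC minus mural was 0.3553, -0.1948 and -1.068. Postn in FB minus mural was -0.6829, 2.135 and 1.622, beside Ptn barcodes at 23.3%, 75.3% and 70.3% of FBs, whose part was not tested. Ccn1 in TEC minus EC was -0.6543, 1.406 and 0.7554, in EC minus FB 0.7853, -0.8458 and -0.4985, and in EC minus mural 0.4011, -0.4037 and -0.9642. Sparcl1 in EC minus FB was 0.1011, -0.8779 and -0.4932. Thbs1 in EC minus FB was -2.311 and -1.366 in both Foxn1Lin libraries and 0.3254 in the wild type, where genotype stands in place of sex.

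The reporter transcript tdT-WPRE gave a signal outside the levels of the members. It was found in 80.0% and 93.8% of the unclassed barcodes with at least 3 Spp1 UMIs of Foxn1Lin female and male (12 of 15 and 30 of 32, 95% exact intervals 51.9 to 95.7% and 79.2 to 99.2%). Among EC, FB, mural and mesothelial barcodes with at least 3 Spp1 UMIs it was found in 88.9% and 91.7% (8 of 9 and 11 of 12), against 17.5% and 20.1% of those with no Spp1 UMI. In the wild type, which lacks the reporter, it was found in 0 of 35 and 0 of 9. The reporter was at 919 and 1644 CPM in FBs with at least 3 Spp1 UMIs (5 and 6 barcodes), against 27.8 and 36.6 CPM with none. In mural cells it was at 1151 and 1852 CPM (3 and 6 barcodes) against 67.1 and 134 CPM. Median depth was 7050 and 10160.5 against 7421 and 9364 UMIs in these FBs. It was 5985 and 10511 against 4035.5 and 5413 UMIs in the mural cells. The part of depth in the shares was not tested.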

How the results depend on the processing

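All 71 called tests of members kept their direction in every alternative that was run for them, with fewer alternatives for the tests within classes. Of 53 tests not called 21 changed sign and 18 were called in some alternative. Between classes 52 calls became 44 to 53 by the alternatives other than leaving out a library and 39 to 55 with a library left out. Without the library block the calls were 10 within classes in place of 19, 1 between FB and mural cells in place of 2, 1 for EC Vwf/Selp in place of 4 and 1 for mural Myh11 in place of 5. Without a filter on low counts there were 7 for EC Vwf/Selp and 6 for TEC Cldn3/Plet1 in place of 3. With 1 library left out, calls ranged from 3 to 5 for TEC and mesothelial cells (3 without the wild type), 3 to 8 for EC and mural cells (3 without Foxn1Lin male or the wild type), 2 to 3 for EC and mesothelial cells in place of 4 (2 without the wild type), 2 to 4 for FB and mural cells (4 without Foxn1Lin female), 3 to 6 for mural Myh11 (3 without Foxn1Lin male) and 2 to 5 for TEC Cldn3/Plet1 (5 without either Foxn1Lin library). The cause of these changes was not tested, and without Foxn1Lin female or the wild type only 1 library with mesothelial cells was left. Without TMM the median over all genes moved by 0.27 to 0.37 (log2) in the 4 TEC comparisons and by -0.22 for EC Vwf/Selp and -0.18 for mural Myh11, and Thbs1 between TEC and EC lost its call (adjusted p = 0.065). The share of Spp1 UMIs in unclassed barcodes was 40.5% and 70.1% in Foxn1Lin female and male with the highest doublet scores removed, and 44.4% and 78.3% with stricter gates, against 35.4% and 66.1%. The unclassed barcodes with at least 3 Spp1 UMIs numbered 15 to 35 in a library, which limits the precision of their levels.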
